A study of Mus musculus with 6 samples.

Results

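The sites described here are positions with a called summit of the transcriptional coactivator YAP in both tumor libraries of a mouse stomach study. They lie at the start or end of a protein-coding gene. A site was the midpoint of 2 summits, 1 from each library labelled YAP tumor, that were each other's nearest and at most 200 bp apart on chromosomes 1 to 19 and X. It was kept where it lay within 1 kb of the start or end coordinate of a protein-coding gene and more than 200 bp from every summit of both libraries labelled YAP normal. The sites were thus chosen by the positions of YAP summits in all 4 YAP libraries, and their number and their presence in tumor 1 and tumor 2 are descriptions. The rule kept 9157 of the 29468 replicated tumor sites. Before the normal summits were applied, 9589 sites lay at gene ends, and 432 of these were removed. Of the rest, 19280 lay farther from any gene end and away from normal summits, and these distal sites serve as the comparison below.

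The study profiled gastric corpus epithelium, released with EDTA and fixed without culture, by chromatin immunoprecipitation and sequencing in 6 libraries. Each label, normal and tumor, has 2 YAP libraries and 1 of H3K27ac. Normal mice were wild type (WT), and tumor mice had the genotype CluCreERT2;R26rtTA;HA-Yap+, in which Clu drives the tamoxifen-inducible Cre, so the switch is limited to cells with Clu activity and their descendants. The labels give all 6 libraries, normal ones included, tamoxifen followed by doxycycline food, and they leave unsaid whether the libraries under 1 label are different mice. Peak names contradict 2 of the YAP labels. Names in the library labelled normal 2 hold the word that marks tumor H3K27ac peaks, and names in the library labelled tumor 1 hold the word that marks normal H3K27ac peaks. Groups follow the labels throughout, and the closing section gives the counts under the other grouping.

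YAP has no DNA-binding domain and reaches chromatin through partner proteins, chiefly the TEAD transcription factors, which often act beside AP-1 factors at enhancers. The Hippo kinases restrain it by phosphorylation that keeps it out of the nucleus, and several Hippo genes are themselves activated by YAP in a feedback loop. H3K27ac marks active promoters and enhancers, and in gastric epithelium YAP activity is known to accompany regeneration and tumor growth.

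Short stretches of DNA from 10 of the sites show the letters that the motif counts below turn on. Each is 81 bases centred on the site, printed 5′ to 3′ on the strand of the named gene, from RefSeq promoter sequences of GRCm38.p6, the build of the deposited summits (mm10). All 10 lie upstream of the named gene's transcript start and overlap no protein-coding gene. Capitals mark only the motif named on each line, on either strand, and matches to other motifs stay in lower case. A match is a description of letters, not a shown binding site.

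The first 4 stretches each show a different motif: the ETS letters CCGGAAG at Cdk11b, a kinase in RNA processing, an exact NRF1 match at Polr2e, an RNA polymerase II subunit, the CRE letters TGACGTCA between Cope and Ddx49, and the AP-1 letters TGANTCA between Ranbp1 and Trmt2a. Cope encodes a subunit of the COPI vesicle coat and Ddx49 an RNA helicase, and the genes diverge from 1 shared stretch, shown on the Cope strand. That stretch also holds the TEAD letters GGAATG, in lower case, just before the CRE letters. Ranbp1, a regulator of nuclear transport, and Trmt2a, a tRNA methyltransferase, likewise diverge, and the stretch is on the Ranbp1 strand.
Cdk11b, chr4:155624720-155624800, plus strand, ETS: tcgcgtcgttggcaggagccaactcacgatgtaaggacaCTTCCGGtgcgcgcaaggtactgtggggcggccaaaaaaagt
Polr2e, chr10:80039738-80039818, minus strand, NRF1: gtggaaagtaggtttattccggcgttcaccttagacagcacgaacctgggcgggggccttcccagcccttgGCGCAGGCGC
Cope, chr8:70302527-70302607, plus strand, CRE: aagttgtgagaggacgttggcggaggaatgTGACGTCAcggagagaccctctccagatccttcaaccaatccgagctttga
Ranbp1, chr16:18248713-18248793, minus strand, AP-1: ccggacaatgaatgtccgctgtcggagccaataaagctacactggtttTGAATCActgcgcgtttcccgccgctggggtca

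The next 3 are printed with the TEAD letters GGAATG in capitals, at Lrr1 and Slc35b1, which carry the second and the fourth best-ranked sites of all, and at the Hippo gene Wwc2.
Lrr1, chr12:69168640-69168720, plus strand, TEAD: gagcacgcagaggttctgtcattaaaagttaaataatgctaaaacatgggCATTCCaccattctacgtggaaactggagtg
Slc35b1, chr11:95384711-95384791, plus strand, TEAD: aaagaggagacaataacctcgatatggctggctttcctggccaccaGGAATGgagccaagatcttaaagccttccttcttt
Wwc2, chr8:47990552-47990632, minus strand, TEAD: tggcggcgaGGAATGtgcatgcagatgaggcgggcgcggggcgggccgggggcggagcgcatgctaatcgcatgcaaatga

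The last 3 lie at the Hippo genes Mob1b and Nf2 and at the AP-1 gene Fos, and were searched for the TEAD letters only. They have no GGAATG within these 81 bases and so carry no capitals, although letters of other motifs, such as the E-box CACGTG and the GC box GGGCGG at Mob1b, stand there in lower case.
Mob1b, chr5:88720741-88720821, plus strand: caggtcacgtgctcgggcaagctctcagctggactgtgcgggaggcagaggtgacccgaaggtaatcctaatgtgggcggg
Nf2, chr11:4849590-4849670, minus strand: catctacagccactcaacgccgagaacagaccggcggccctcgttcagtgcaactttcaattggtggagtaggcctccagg
Fos, chr12:85473703-85473783, plus strand: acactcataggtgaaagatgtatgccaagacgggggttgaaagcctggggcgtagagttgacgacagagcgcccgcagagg

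On the chromosomes used, tumor 1 had 38227 summits, tumor 2 53831, normal 1 1574 and normal 2 2121. The H3K27ac list had 22386 summits for normal stomach and 66532 for tumor. Sequencing depth is unknown, since a summit list gives positions and no read totals. Each summit has the authors' own score, a −log10 p-value or q-value, which is used here to describe and rank summits within 1 list. Wilson 95% intervals, given in brackets after shares, cover counting error only. H3K27ac summits lay within 1 kb of an end of 9 of 10 gastric epithelial marker genes in each library, and all 10 had a gene-end YAP site. Of 6 immune marker genes, 1 had H3K27ac in the normal and 2 in the tumor library, with Cd3e and Cd68 among those in neither, and of 3 endothelial genes 0 and 1, with Pecam1 and Cdh5 in neither. Of 5 fibroblast and muscle genes, 3 had it in the normal and 2 in the tumor library, with Pdgfra in neither, and Col1a1 had a gene-end YAP site. Of 3 squamous genes 0 and 2 had it, with Trp63 in neither, and of 4 intestinal genes 2 and 4, with YAP sites at Lgr5 and Vil1. The part of these other cells in the results was not tested.

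Scores of the 9157 sites ran from 1.31 to 135 in tumor 1, with a median of 14.4, and from 2.39 to 158 in tumor 2, with a median of 23.6. The 432 gene-end sites removed for a nearby normal summit had medians of 26.5 and 41.9, and the distal sites 6.72 and 11.2. The summits of the 2 libraries lay a median of 54 bp apart. Spearman's rho between their scores was 0.855 over these sites and 0.635 over the distal ones, given as a description, since sites share their libraries. Of the 432 removed sites, normal 1 alone removed none that normal 2 did not also remove: without normal 1 the count stayed at 9157, and without normal 2 it was 9579.

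Replication can be read from either tumor library in turn, using the summits of the other only to ask whether a position recurred. A summit of tumor 1 at a gene end, away from normal summits, had a tumor 2 summit within 200 bp in 82.3% of 11131 cases (81.6 to 83.0), against 74.7% of 25820 distal summits (74.2 to 75.3). In the reverse direction the share was 72.6% of 12636 (71.8 to 73.3), against 48.3% of 39955 (47.8 to 48.8). The share fell with the score in both directions. In the best of 10 equal score classes of tumor 1, 95.1% of gene-end and 96.4% of distal summits recurred, and in the last class 46.3% and 48.6%. In tumor 2 the share fell from 94.1% to 15.6% at gene ends and from 95.8% to 14.1% elsewhere. Within classes the overall difference did not hold for tumor 1, where the gene-end share was the lower in 9 of 10 classes. For tumor 2 it was the higher in 7 of 10.

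**Figure D1:**
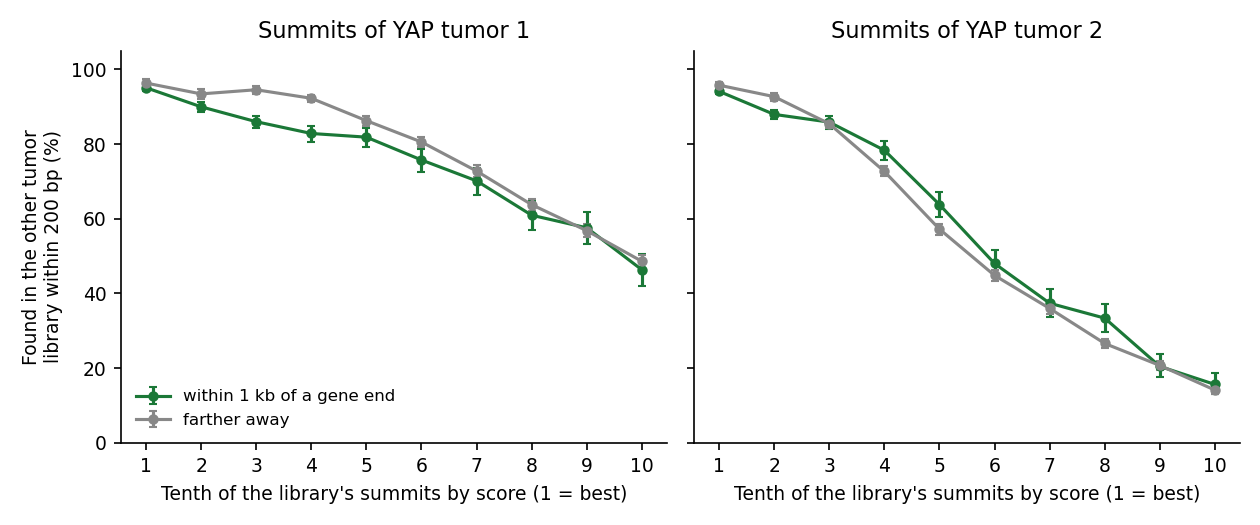
Share of summits of each YAP tumor library (y axis, percent) that have a summit of the other tumor library within 200 bp, in 10 equal classes of the library's scores (x axis, 1 is best), with Wilson 95% intervals. Gene-end summits fall from 95.1% to 46.3% in tumor 1 and from 94.1% to 15.6% in tumor 2, and in tumor 1 they lie below the distal summits in 9 of 10 classes.

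Most of the sites lay much closer to the ends of genes than the 1 kb window required. The median distance to the nearest gene end was 119 bp, with quartiles of 56 and 243 bp. A distance of at most 100 bp was found for 43.6% of sites (42.6 to 44.7), and of at most 500 bp for 87.4% (86.7 to 88.0). Where strand was known, most of them lay at the 5′ end. Strand was known for 17273 of the 21627 protein-coding genes, and 6972 sites (76.1%) lay at a 5′ end, 427 (4.66%) at a 3′ end only, and 1747 (19.1%) at an end of unknown strand. Seen from the genes, 7497 of 17273 5′ ends, or 43.4 percent, had a site, against 877 of 17273 3′ ends, or 5.08% (4.76 to 5.41). Among 13504 3′ ends with no known start or unknown end within 2 kb, 402 had one, or 2.98% (2.70 to 3.28).

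Around transcript starts the distribution was nearly symmetric. Of 6741 sites within 1 kb of a start, 51.5% lay downstream, the median position was 6 bp downstream, and the quartiles were 98 bp upstream and 92 bp downstream. A distance of at most 250 bp from the start held for 86.9% of them (86.1 to 87.7). The fullest 50 bp bin, just downstream of the start, held 1024 sites. Divergent promoters, where a pair of genes is read in opposite directions from starts within 1 kb of each other, had a site in 455 of 577 cases, or 78.9% (75.3 to 82.0), against 40.9% (40.1 to 41.6) of 16123 other starts.

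**Figure D2:**
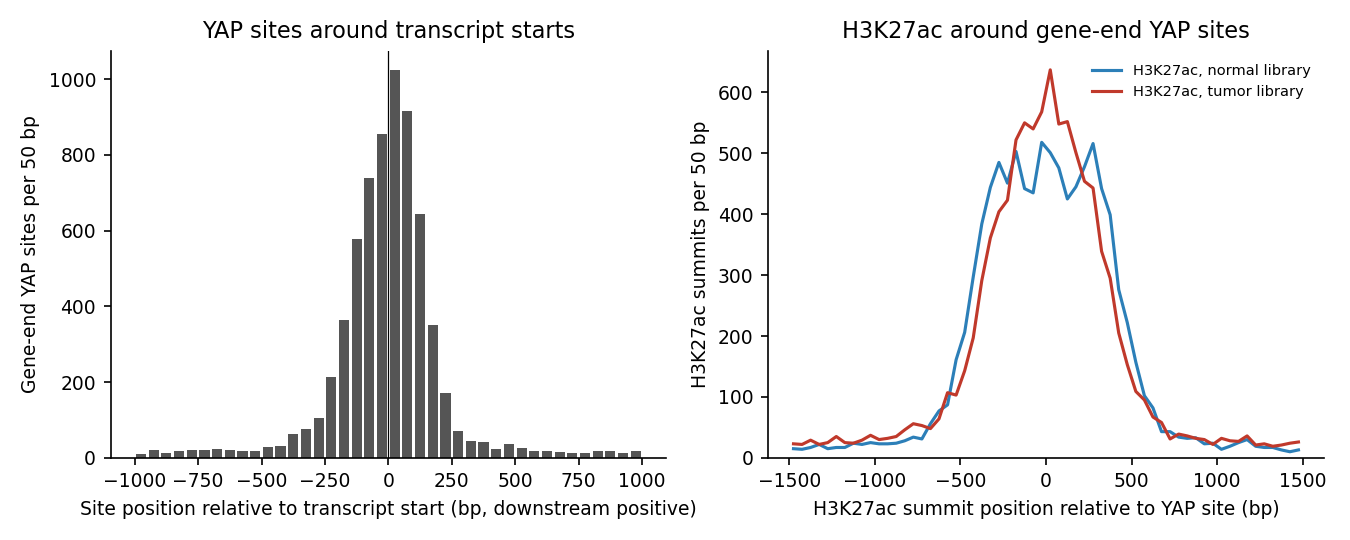
Left, number of gene-end YAP sites per 50 bp (y axis) by distance from the transcript start (x axis, bp, downstream positive), with the fullest bin of 1024 sites just downstream of the start. Right, number of H3K27ac summits per 50 bp around the YAP sites in the normal (blue) and tumor (red) library, most of them within 500 bp.

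A gene-end site was found at 9712 of 21627 protein-coding genes, which is 44.9 percent and is the background for every gene group below. Most of these genes, 8915, had 1 site, 771 had 2, 25 had 3, and 1 had 4. The gene with 4 was Pacs2, a sorting protein of the secretory pathway, with sites 279 and 252 bp from its 5′ end and 104 and 895 bp from its 3′ end, all with H3K27ac in both libraries. Pkm, the glycolytic enzyme pyruvate kinase, had 2 sites at its 5′ end with H3K27ac in both libraries and another site, 880 bp from its 3′ end, with H3K27ac in the tumor library only. Conversely, 1329 sites (14.5%) served a pair of genes and 25 sites served 3, so genes counted below can share a site. Fewer genes of the X chromosome had a site, 246 of 966 or 25.5% (22.8 to 28.3), against 37.6% to 54.3% over the autosomes. Tumor H3K27ac was also less frequent there, at 43.8% of X genes, and among the 423 X genes with it 53.2% had a site, against 65.2 percent of all 14107 genes with tumor H3K27ac.

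The 20 best-ranked sites were taken by the mean of the ranks in the tumor libraries, 1 per gene. Their scores ran from 62.5 to 135 in tumor 1 and from 79.3 to 158 in tumor 2, and the sites lay 0 to 235 bp from the gene end. The first was Fyco1, an adaptor for autophagosome transport, with a score of 103 in tumor 1 and 158 in tumor 2, 101 bp from its 5′ end. Its nearest summits in normal 1 and normal 2 were 72510 and 21055 bp away, and H3K27ac summits lay at 261 bp (normal) and 308 bp (tumor). Lrr1, a substrate receptor of a ubiquitin ligase that acts in DNA replication, followed with 135 and 111, and its H3K27ac summits lay 8 bp (normal) and 2 bp (tumor) from the YAP site. Polr3f, an RNA polymerase III subunit, had 104 and 132, with H3K27ac summits at 25 and 22 bp.

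Slc35b1, a transporter of the endoplasmic reticulum, had scores of 115 and 107, and Hadhb, an enzyme of mitochondrial fatty acid oxidation, 101 and 104. Psmd1, a proteasome subunit, had 116 and 90.5, and Upf2, a factor of nonsense-mediated mRNA decay, 90.3 and 102. Rpl27, a ribosomal protein, had 78.5 and 104. The remaining genes were Ap3m1, Sh3glb1, Nuf2, Dph6, Ttc8, H4c3, Ddx20, Eif4enif1, Bag6, Nhlrc3, Rbbp8 and Vti1b. Of the 20 sites, 18 had H3K27ac in both libraries, 1 (H4c3, a histone H4 gene) in the tumor library only, and 1 (Rbbp8, a DNA end resection factor) in neither. The closest normal YAP summit to any of them was 208 bp away, at Nhlrc3, in normal 2, just outside the 200 bp limit.

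The sites closest to each limit of the rule, on its inner and outer side, are given as a description. At the 1 kb limit, the last sites kept were those of Dennd3 (1000 bp, scores 4.93 and 15.7) and Acbd5 (999 bp, 18.6 and 19.4), and the first left out were those of Irf2bp1 (1001 bp, 11.8 and 8.13) and Stk24 (1004 bp, 7.12 and 18.5). At the limit from normal summits, Rab3d (201 bp) was kept with 12.6 and 24.6, while Ap3b1 (200 bp) and Zfp276 (199 bp) were removed with 20.4 and 23.3, and with 17.9 and 24.3. At the limit on the gap between tumor summits, Coa6 and Phf20l1 (both 200 bp) were kept, and Rxylt1 and Zkscan8 (both 201 bp) were not.

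H3K27ac was not used to choose the sites, and most of them carried it in normal stomach already. A normal H3K27ac summit lay within 1 kb of 83.4% of the sites (82.6 to 84.1), against 25.4 percent of all gene ends, and a tumor summit within 1 kb of 91.7% (91.1 to 92.3), against 37.3 percent. Among 5′ ends of known strand, where most sites lie, the shares were 48.2% and 62.2%. Both libraries had one at 7434 sites (81.2%), the tumor library alone at 965 (10.5%, all gene ends 13.0 percent), the normal library alone at 201 (2.20%, all gene ends 1.18 percent), and neither at 557 (6.08%). The tumor list is longer, and cut to the length of the normal list by best score it covered 83.9% of the sites, with 5.60% in the tumor library only and 5.09% in the normal library only. Distal YAP sites carried normal H3K27ac in 28.4% (27.8 to 29.0) and tumor H3K27ac in 31.0% (30.4 to 31.7) of cases. The 432 removed sites carried them in 96.5% and 98.8%. With 1 H3K27ac library per label there is no replicate and no test between conditions.

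Read the other way, gene ends with H3K27ac in both libraries had a YAP site in 8351 of 10488 cases, or 79.6% (78.8 to 80.4). Ends with H3K27ac in the tumor library only had one in 1091 of 5641 cases, or 19.3% (18.3 to 20.4), and ends with it in the normal library only in 242 of 512, or 47.3% (43.0 to 51.6). Ends with neither had one in 2.54% of 26613 cases. No YAP summit of any library lay within 1 kb of 3541 of the 5641 tumor-only ends and of 233 of the 10488 ends with both. The counts were 147 of 512 for normal-only ends and 25079 of 26613 for ends with neither.

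At most sites the nearest acetylation summit lay more than 50 bp from the YAP site, although the fullest 50 bp bins adjoined the site. In the tumor library the bin from 0 to 50 bp held 637 summits. In the normal library the bin from -50 to 0 bp held 518, and that from 250 to 300 bp nearly as many, 516. A limit of 50 bp is also close to the median of 54 bp between the YAP summits of the tumor libraries. Where an H3K27ac summit lay within 1 kb, its median distance from the YAP site was 204 bp in the normal and 189 bp in the tumor library. A distance of at most 50 bp held for 11.2% (10.6 to 11.9) of all sites in the normal and 13.3% (12.6 to 14.0) in the tumor library. Over the 20 best-ranked sites the counts were 9 in the normal and 5 in the tumor library.

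The H3K27ac state of a site went with its YAP rank. In the best of 10 equal rank classes 98.3% had normal and 98.9% tumor H3K27ac, and in the last class 46.1% and 75.6%. Sites with H3K27ac in the tumor library only made up 1.42% of the best class and 33.1% of the last. The median distance to the gene end rose in parallel, from 101.5 bp to 280 bp. Sites at a 3′ end only had tumor H3K27ac in 39.6% and normal H3K27ac in 25.1% of 427 cases, with median scores of 6.72 and 10.8. They made up 41.7% of the sites with H3K27ac in neither library and 1.09% of those with it in both.

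**Figure D3:**
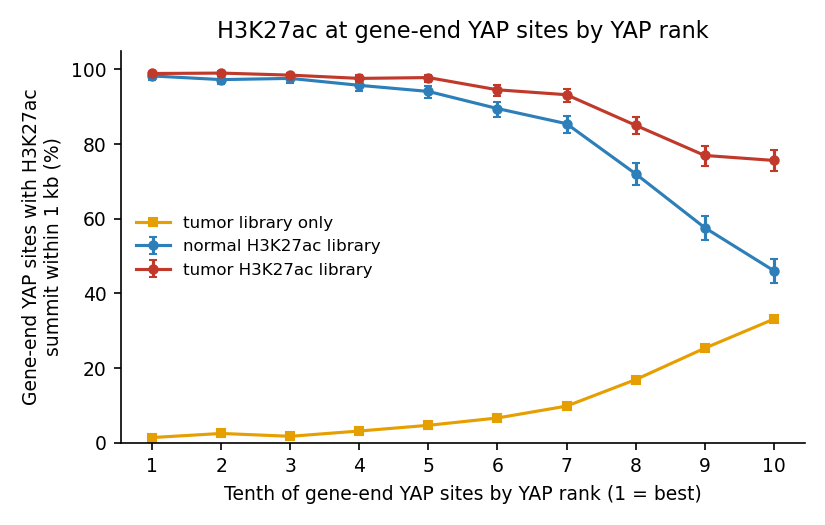
Share of gene-end YAP sites with an H3K27ac summit within 1 kb (y axis, percent, bars are Wilson 95% intervals) in 10 equal classes of YAP rank (x axis, 1 is best). Normal H3K27ac falls from 98.3% to 46.1% and tumor H3K27ac from 98.9% to 75.6%, while sites with it in the tumor library only rise from 1.42% to 33.1%.

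The best-ranked sites with H3K27ac in the tumor library only lay at H4c3, H4c4, Polr2e, Tle4, Kifc1 and Cenpu. H4c4, a histone H4 gene, had scores of 48.9 in tumor 1 and 83.0 in tumor 2, with H3K27ac 180 bp away in the tumor library and no closer than 3739 bp in the normal one. Kifc1, a kinesin of the mitotic spindle, had 49.1 and 70.7, with H3K27ac 398 bp (tumor) and 17893 bp (normal) away. Cenpu, a centromere protein, had 42.4 and 62.4, with H3K27ac at 101 bp (tumor) and 48971 bp (normal). Tle4, a corepressor, had 72.3 and 61.9, and its normal H3K27ac summit, 1135 bp away, was just beyond the window, so its class rests on the limit. Histone genes are near-identical copies, so reads of H4c3 and H4c4 can be placed at more than 1 of them.

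Sites with H3K27ac in the normal library only were led by Med6, a subunit of the Mediator complex, with 36.8 and 79.0, a normal summit at 234 bp and the nearest tumor summit 36047 bp away. Ing4, Tesk1, Mrpl35, Calcoco1 and Macc1 followed, with scores between 28.9 and 36.6 in tumor 1 and between 42.8 and 52.0 in tumor 2. Those with neither were led by Rbbp8 (79.6 and 81.3) and Csrp1, a LIM protein of actin filaments (36.0 and 64.1, 866 bp from its 3′ end). Phf23 (39.7 and 35.4) had its closest H3K27ac summits at 1397 bp (normal) and 1360 bp (tumor).

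Genes of the Hippo pathway carried these sites in 20 of 27 cases, or 74.1% (55.3 to 86.8), against 44.9 percent of all genes. Of the 23 with tumor H3K27ac, 18 had one (78.3%), against 65.2 percent of all genes with tumor H3K27ac. The kinase cassette was covered in full. Stk3 and Stk4, the upstream kinases, had scores of 11.7 and 31.8, and of 13.6 and 22.9. Sav1, their scaffold, had 18.2 and 23.0. Lats1 and Lats2, the kinases that phosphorylate YAP, had 21.2 and 29.0, and 19.3 and 32.7, and their cofactors Mob1a and Mob1b had 38.5 and 52.6, and 24.2 and 27.9. All 7 sites had H3K27ac in both libraries, and the nearest normal YAP summit to any of them was 8731 bp away, at Mob1a in normal 2.

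Upstream regulators were covered in part, and 2 of those named here lacked H3K27ac in the normal library. Nf2, the tumor suppressor Merlin, had 20.4 and 27.6, and its partners Wwc1 and Wwc2 had 10.4 and 19.8, and 9.95 and 40.1. Frmd6 had 29.3 and 34.0, with a normal 2 YAP summit 648 bp away. Amotl2, an angiomotin that holds YAP at junctions, had 32.7 and 49.7, with H3K27ac at 311 bp (normal) and 253 bp (tumor). Amot had 9.24 and 13.0, and Taok3, a kinase that activates the cassette, 22.5 and 55.7, both with H3K27ac in the tumor library only. At Taok3 the normal H3K27ac summit was 1290 bp away. Map4k4 had 15.4 and 17.9, Ptpn14 2.33 and 15.0, and Rassf1 17.6 and 28.9 at its 3′ end.

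Among the DNA-binding partners, Tead1 had 2 sites, 167 and 620 bp from its start coordinate, with scores of 16.6 and 29.1, and of 8.91 and 16.5. Tead4 had 8.86 and 21.4. Vgll4, a TEAD corepressor, had 4.09 and 19.7, with a normal 2 YAP summit 819 bp away. Tead2, Tead3, Taok1, Taok2, Amotl1, and YAP and TAZ themselves (Yap1, Wwtr1), had no such site. These counts rest on requiring both tumor libraries. With summits of tumor 2 alone 25 of 27 Hippo genes had one (92.6%, all genes 55.9%), and with tumor 1 alone 23 of 27 (85.2%, all genes 51.4%). Yap1, Wwtr1 and Tead3 had H3K27ac at an end in both libraries.

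Established YAP and TAZ target genes had a site in 18 of 28 cases, or 64.3% (45.8 to 79.3), and 17 of the 18 best sites had H3K27ac in both libraries. The counts overlap with the pathway, since Amotl2, Frmd6, Lats2, Ptpn14, Wwc1, Tead1 and Tead4 stand in both lists. Gadd45a, a stress and growth arrest gene, had 29.4 and 44.8, 7 bp from its 5′ end. Ccn1, a matricellular growth regulator, had 10.3 and 21.1, 50 bp from its 5′ end, with H3K27ac at 162 bp (normal) and 88 bp (tumor). F3, tissue factor, had 17.2 and 23.9, Birc5, the survival protein survivin, 19.5 and 25.5, Ajuba 7.31 and 11.9, and Myof 5.87 and 14.1. Axl, a receptor tyrosine kinase, had its site 206 bp from the 3′ end, with 14.9 and 24.9 and no H3K27ac within 1 kb in either library.

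The other 10 target genes had no gene-end site: Ccn2, Ankrd1, Crim1, Dlc1, Fjx1, Foxf2, Tgfb2, Rbms3, Igfbp3 and Amotl1. Ccn2 and Crim1 had H3K27ac at an end in both libraries, and Ankrd1, Tgfb2, Rbms3, Igfbp3 and Amotl1 in neither. Sites of target genes were not among the best ranked, with median scores of 10.4 and 22.7 over the 18 genes, below the medians of 14.4 and 23.6 over all sites. The best, Amotl2, ranked 375 of 9157, and the best Hippo site, at Mob1a, ranked 222.

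Lists of growth and early response genes lay above the background of 44.9 percent, as did housekeeping lists below. Immediate-early genes had one in 17 of 20 cases (85.0%), led by Btg2 (28.9 and 41.5), Btg1 (24.4 and 49.1), Ier5 (24.4 and 44.8) and Klf6 (23.8 and 41.4). AP-1 genes had one in 16 of 20 (80.0%), among them Atf7 (26.7 and 47.8), Atf2 (28.0 and 40.2), Fos (25.2 and 32.2) and Junb (22.3 and 29.4), whereas Jun had none. Cell cycle and DNA replication genes had one in 42 of 50 (84.0%). Aurka, a mitotic kinase, had 30.2 and 62.4, and Mcm7 and Mcm4, of the replicative helicase, 32.4 and 53.2, and 26.9 and 50.7. Gins2, of the same replication machine, had 33.6 and 42.6 with H3K27ac in the tumor library only. Of the 50 cell cycle genes, 45 had tumor H3K27ac at an end (90.0%) and 32 normal H3K27ac (64.0%), against 65.2% and 48.6% of all protein-coding genes.

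Ligands and receptors of the EGF family had a site in 7 of 12 cases (58.3%, 32.0 to 80.7), an interval that includes the background of 44.9 percent. Hbegf, a membrane-bound EGF ligand, ranked 109, with 44.8 and 59.4. Areg, amphiregulin, had 14.4 and 29.2, with H3K27ac 75 bp away in the tumor library and no closer than 40958 bp in the normal one. Btc had 16.2 and 23.8, and the receptor Erbb2 12.1 and 21.2, both with H3K27ac in both libraries.

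Housekeeping groups stood in the same range as the Hippo genes. Cytosolic ribosomal protein genes had a site in 65 of 83 cases (78.3%), mitochondrial ribosomal protein genes in 60 of 78 (76.9%), translation initiation factors in 41 of 51 (80.4%), genes of the early secretory pathway in 42 of 53 (79.2%) and RNA polymerase II and Mediator genes in 34 of 43 (79.1%). Splicing factors had one in 47 of 64 (73.4%), proteasome subunits in 28 of 39 (71.8%), oxidative phosphorylation genes in 56 of 87 (64.4%), replication-dependent histone genes in 53 of 68 (77.9%) and zinc finger genes named Zfp in 235 of 367 (64.0%). Rpl35a (81.0 and 77.7), Sec61b, a channel subunit of the endoplasmic reticulum (88.5 and 75.3), Sf3b3, a splicing factor (63.2 and 60.1), and Eif2s3x (65.5 and 60.3) had higher ranks than any Hippo gene. Histone genes, and possibly some of the zinc finger genes, have near-identical copies, where reads can be placed at more than 1 copy. How far this applies was not tested. Histone genes also share sites: H2ac24 and H4c18 are counted from the same site.

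Lists of gastric cell types ran from 30.0% to 83.3%, with wide intervals, and differences between lists were not tested. Gastric lineage factors had a site in 15 of 22 cases (68.2%), among them Klf3 (43.4 and 49.5), Elf1 (27.2 and 61.3), Klf5 (23.1 and 45.6) and Sox21 (22.3 and 36.2). Simple epithelial keratins had one in 5 of 6, and junction and polarity genes in 16 of 25 (64.0%), such as Ctnnb1, beta-catenin (33.3 and 48.0), and Scrib (27.8 and 47.3). All 25 junction genes had tumor and 19 had normal H3K27ac (76.0%). Their 64.0% is thus also the share among genes with tumor H3K27ac, beside 65.2 percent of all genes with it. Genes of pit cells, the mucous cells of the surface, had one in 10 of 14 cases (71.4%), including Foxq1 (18.7 and 43.9) and Muc1, whose best site lay 402 bp from its 3′ end. Markers of spasmolytic polypeptide-expressing metaplasia (SPEM), a mucous state that replaces lost acid-secreting glands, had one in 10 of 19 (52.6%). Of the 12 SPEM genes with tumor H3K27ac, 8 had a site (66.7%), near the 65.2 percent of all such genes. The same share was 73.7% for lineage factors, 87.5% for pit cell genes and 100% for the keratins. Clu, the gene whose promoter drives the Cre, had 24.9 and 35.9 at its start coordinate.

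Genes of parietal cells, the acid-secreting cells, had a gene-end site in 6 of 20 cases, or 30.0% (14.5 to 51.9), and 17 of 20 had tumor and 14 of 20 normal H3K27ac at an end, both above the shares of all genes. Of those 17, 6 had a site (35.3%), against 65.2 percent of all genes with tumor H3K27ac. The proton pump genes Atp4a and Atp4b and the potassium channel gene Kcnq1 had H3K27ac in both libraries and no site. The genes with one included Slc4a2, the basolateral anion exchanger (29.4 and 36.3), Car2, a carbonic anhydrase (27.5 and 28.9), Tfcp2l1 (16.2 and 33.4) and Slc9a4 (15.2 and 20.8). This low count rested on requiring both tumor libraries: with summits of tumor 2 alone 12 of 20 had one (60.0%, all genes 55.9%), and with tumor 1 alone 13 of 20 (65.0%, all genes 51.4%). Chief cell genes, of the enzyme-secreting cells, had one in 6 of 14 (42.9%), with low scores at Bhlha15 (8.43 and 10.1).

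Genes of other tissues rarely had one. Squamous and intestinal genes had a site in 2 of 18 cases (Lgr5 and Vil1), and H3K27ac was also below the share of all genes, in 10 of 18 (55.6%) for tumor and 2 of 18 (11.1%) for normal. Immune genes had one in 2 of 20 (Spi1 and Cd4), both with H3K27ac in the tumor library only, and genes of fibroblasts, muscle and endothelium in 1 of 18 (Col1a1). The Spi1, Cd4 and Col1a1 sites lay 518, 878 and 880 bp from a gene end of unknown strand. With gene ends within 500 bp the counts were 0 of 20 and 0 of 18 (all genes 40.2%). Olfactory and vomeronasal receptor genes had one in 5 of 1459, or 0.343% (0.146 to 0.800), and these families have near-identical members. Among genes with tumor H3K27ac, 65.2 percent of all genes had a site. The counts there were 2 of 10 for squamous and intestinal genes and 1 of 8 for genes of fibroblasts, muscle and endothelium. Immune genes had one in 2 of 3 and receptor genes in 3 of 30. In all, 21 of the 27 lists lay above the share of all genes, and 23 kept their side in every setting tried.

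**Figure D4:**
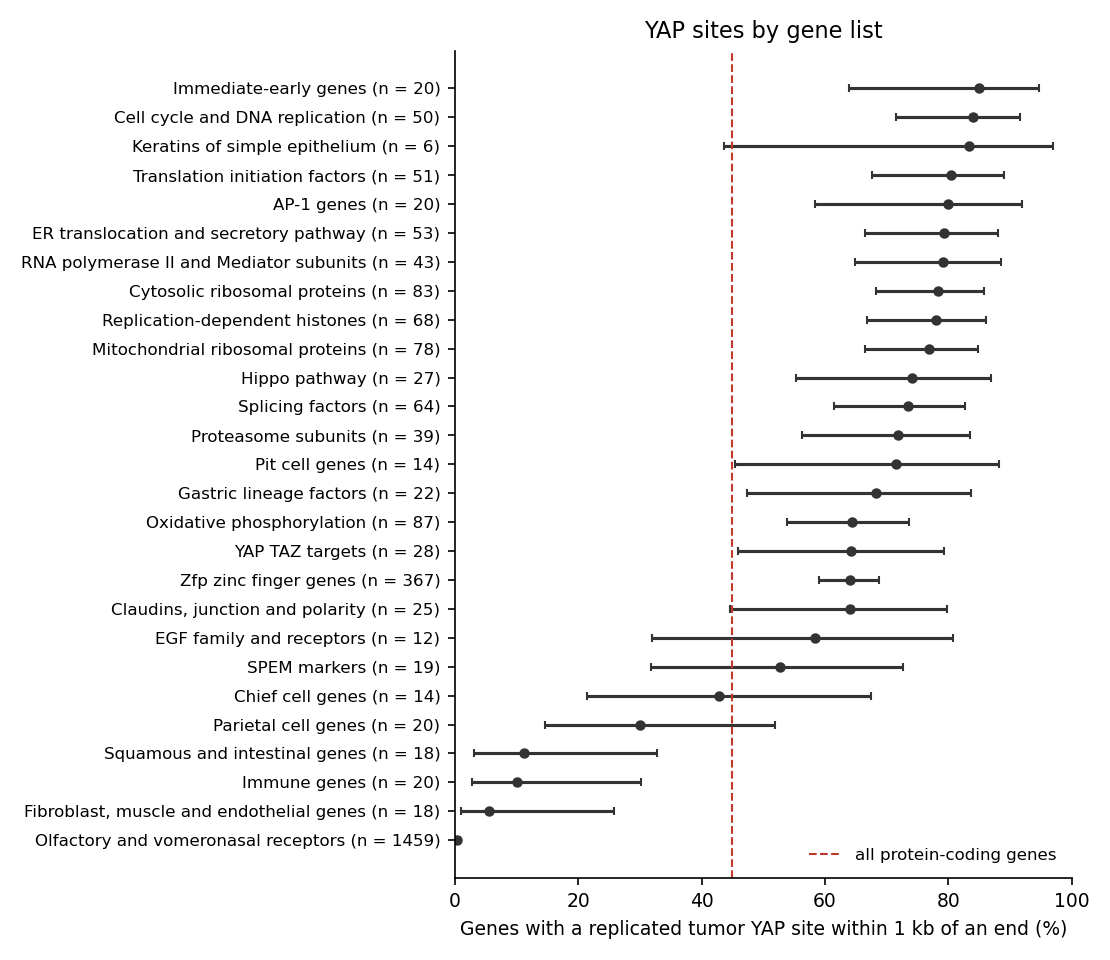
Share of the genes of each list with a replicated tumor YAP site within 1 kb of an end (x axis, percent, points with Wilson 95% intervals, gene numbers in brackets). The dashed line is the 44.9 percent of all protein-coding genes, and the lists run from 85.0% for immediate-early genes to 0.343% for olfactory and vomeronasal receptors.

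Promoters of genes with a site held more CG dinucleotides and more of the motifs that contain them than other promoters did, and fewer TEAD letters. Windows of 300 bases, from 250 before to 50 after the transcript start, were available for 7834 of the 9712 genes with a site and for 9439 without one. The site of such a gene lay within 1 kb of either end, and 4012 windows contained the site itself. ETS letters were found in 19.1% of windows of genes with a site, against 12.1 percent of all windows and 6.22% of windows of genes without one. In the 4012 windows that contained the site the ETS share was 23.8%. NRF1 letters were found in 863 of the 7834 windows, an interval of 10.3% to 11.7% (all 6.74 percent, without 3.19%), and CRE letters in 3.68% (all 2.36 percent, without 1.26%). The YY1 letters were found in 1.77% (all 0.978 percent, without 0.318%), the GC box GGGCGG in 67.2% (all 46.9 percent, without 30.0%), and the E-box CACGTG in 10.7% (all 8.01 percent, without 5.81%). All of these 6 motifs contain the dinucleotide CG. The KLF letters CACCC were found in 62.7% (all 58.8 percent), and the CCAAT box CCAAT in 39.4% (all 39.6 percent).

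TEAD letters GGAATG were less frequent in windows of genes with a site, at 11.6% (10.9 to 12.3), than in all windows (13.3 percent) or in windows of genes without one (14.8%, 14.1 to 15.5). The longer form GGAATGT, which is part of the same matches, was found in 2.49% (all 3.33 percent), and the AP-1 letters TGANTCA in 4.61% (all 7.09 percent). TATAAA was found in 6.85% (all 13.4 percent) and the GATA letters AGATAA in 5.87% (all 9.99 percent). Base composition moved with these shares. Median GC content was 61.3% in windows of genes with a site and 51.0% in those without, and the median number of CG dinucleotides was 21 and 5, and the part of composition in the motif shares was not tested.

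A narrower comparison is with 1629 windows of genes that had tumor H3K27ac and no YAP summit within 1 kb, with a median GC content of 58.0% and 11 CG dinucleotides. There ETS letters were found in 5.16% (4.18 to 6.34), NRF1 letters in 2.33% (1.70 to 3.19), and the YY1 letters in 1 window (0.0614%). TEAD letters were found in 11.8% (10.3 to 13.4), beside 11.6% for genes with a site, so the intervals overlap almost entirely. KLF letters were found in 69.9% and GC boxes in 44.5%. ETS, NRF1, CRE or YY1 letters, counted as a union, were found in 31.7% (30.7 to 32.7) of windows with a site and in 9.21% (7.90 to 10.7) of these, and TEAD or AP-1 letters in 15.5% (14.7 to 16.3) and 17.5% (15.7 to 19.4). H3K27ac state was not matched in this comparison. Among gene ends with tumor H3K27ac and no YAP summit, 3541 had it in the tumor library only and 233 in both. In 603 windows of genes whose site had H3K27ac in the tumor library only, the first union was found in 17.6% (14.7 to 20.8). ETS letters were found there in 10.6%, NRF1 letters in 5.31% and TEAD letters in 13.1%. The part of H3K27ac state in the motif shares was not tested.

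Motif shares also went with YAP rank. From the best to the last of 5 equal rank classes of genes with a site, ETS letters fell from 23.8% (21.7 to 25.9) to 9.70% (8.33 to 11.3), and TEAD letters were found in 9.64% (8.28 to 11.2) and 14.0% (12.4 to 15.8). In 149 windows of genes whose site had H3K27ac in neither library, AP-1 letters were found in 13.4% (8.86 to 19.8) and ETS letters in 4.03% (1.86 to 8.51). Windows of genes without a site held them in 9.15% and 6.22%, which lie inside these intervals. The median GC content was 51.7% in the 149 windows and 51.0% in windows of genes without a site. In 4012 windows that contained the site itself, the density of ETS letters was 1.39 matches per kb within 25 bp of the site and 0.508 at 150 to 200 bp. CRE letters went from 0.232 to 0.0538, NRF1 letters from 0.617 to 0.352, and E-boxes from 0.580 to 0.263. TEAD letters had 0.396 within 25 bp and 0.412 at 150 to 200 bp, with 75 and 69 matches, and AP-1 letters 0.185 and 0.131, with 35 and 22. The longer form GGAATGT had 0.111 and 0.0777 at these distances, with 21 and 13 matches. ETS letters were thus denser near the site in these windows, whereas the TEAD letters GGAATG were about as dense at both distances. Sites lie close to transcript starts, and the density of each motif by distance from the start was not tested.

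**Figure D5:**
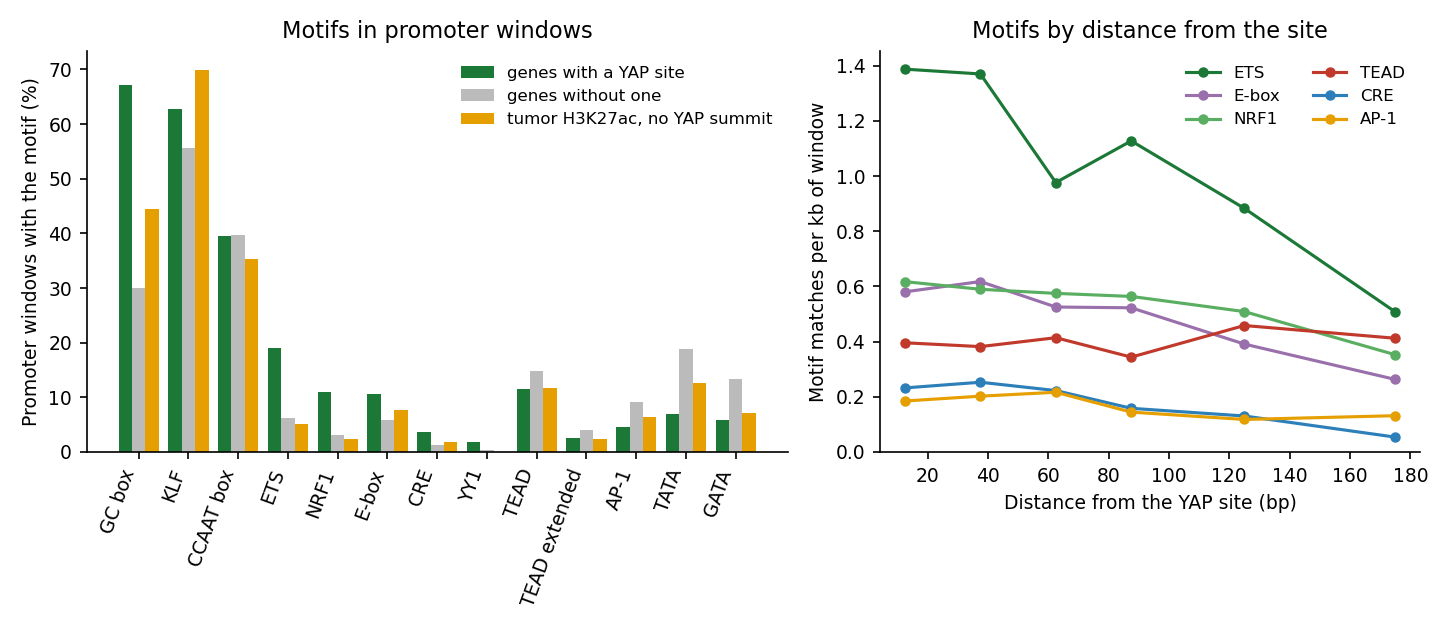
Left, share of promoter windows with each motif (y axis, percent) for genes with a gene-end YAP site (green), genes without one (grey) and genes with tumor H3K27ac and no YAP summit (orange). Right, motif matches per kb of window (y axis) by distance from the YAP site (x axis, bp), where ETS falls from 1.39 to 0.508 and TEAD stays near 0.4.

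In the stretches printed above, the marked letters lay at different distances from the site. At Cdk11b the ETS letters lay 2 bp from the site, which ranked 31 with scores of 61.6 and 77.7, and at Cope and Ddx49 the CRE letters lay 6.5 bp from it (35.0 and 64.8). At Ranbp1 and Trmt2a the AP-1 letters lay 11 bp away (50.7 and 67.2). At Lrr1 and Slc35b1 the TEAD letters lay 12.5 and 8.5 bp away, and at Wwc2 28.5 bp. These stretches were chosen, after their values were seen, from the best-ranked sites that hold each motif within the printed bases and from the Hippo and AP-1 genes.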

How the data were processed

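Bowtie2, MACS2 and the builds GRCm38 and mm10 are named in the submitters' processing notes. Tool versions, peak thresholds and whether a control entered the calls were not given in the sources. The authors deposited 1 list of summits per library, each summit 1 bp wide with a score on the −log10 scale, of either a p-value or a q-value. Peaks were called per sample, since each list has its own summits. Depth is unknown, and a deeper library can return more summits, so H3K27ac lists were also compared at equal length. Gene ends came from 21627 protein-coding RefSeq genes of the same build, and strand and promoter sequences from a RefSeq table that covered 17273 of them (79.9%). Distances are between single positions. Sites were ranked by the mean of their ranks in the tumor lists. Named genes are the 20 best-ranked, up to 4 per list, all Hippo and target genes, up to 10 genes with 3 or more sites, 6 per H3K27ac class and those at the limits. The sites and the 27 gene lists were chosen with earlier results of these data known, and no set test was run. Motifs were searched on both strands by exact letters. The code was tested on simulated data and used Python 3.11.15, numpy 2.4.6, pandas 2.3.3, scipy 1.17.1 and matplotlib 3.10.9.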

Additional observations from a re-analysis of the deposited data

How the results depend on the processing

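No paired analysis was possible because the results are positions in summit lists and come from no test. Grouping by the words in the peak names instead of the labels left 34 sites at 36 genes, with a median distance of 284.5 bp and H3K27ac at 97.1% (tumor), 88.2% (normal) and 11.8% (tumor only), so the 9157 sites rest on the labels of the libraries. A score of at least 10 in both tumor libraries left 6102 sites, with 101 bp, 97.1%, 94.1% and 4.23% for the same quantities, and a score of at least 5 gave 111 bp, 93.8%, 87.7% and 7.99%. Gene ends within 500 bp gave 101 bp, 94.1%, 86.0% and 9.93%, and within 2 kb 141 bp, 86.9% and 78.4%. Summit pairs within 100 bp gave 9.81% tumor only. Leaving out 1 YAP library at a time gave 9157 to 12636 sites, 9712 to 12099 genes, 119 to 146 bp, 87.9% to 92.1% tumor H3K27ac, 75.4% to 84.0% normal H3K27ac and 10.2% to 15.2% tumor only. H3K27ac summits within 200 bp gave 48.4% (tumor), 41.0% (normal) and 15.0% (tumor only), within 500 bp 85.5% and 79.2%, and within 2 kb 93.9% and 84.6%. Lists of equal length gave 83.9% tumor and 5.60% tumor only. The causes were not tested. Lists above the share of all genes numbered 19 to 23 of 27 over the settings, and parietal, chief, pit and SPEM lists changed side in at least 1. At a score of at least 10, pit genes had a site in 4 of 14 cases and SPEM genes in 3 of 19, below the 32.5% of all genes. Motifs above the share of all windows numbered 7 of 13, and 8 where the site lay inside the window, within 200 bp of the start, or scored at least 10. Precision is limited by 2 tumor YAP libraries, 1 H3K27ac library per label and unknown depth.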
